A study of Mus musculus with 8 samples.

Results

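The cells described here are endothelial cells of mouse cortex that carried transcripts of small-artery and arteriolar genes. They were chosen by measured values. A barcode had to have 500 or more genes and under 15% mitochondrial UMIs. A UMI is a molecular tag that marks 1 captured RNA molecule, and CP10k stands for UMIs per 10000 UMIs of a cell. The sum of Cldn5, Flt1 and Pecam1 had to reach 20 CP10k, and the sums of 4 mural genes and of 3 microglial genes each had to stay under 20 CP10k. At least 2 of the 6 arterial genes Gkn3, Sema3g, Stmn2, Vegfc, Bmx and Egfl8 had to be detected, and fewer than 3 of the 6 large-artery genes Mgp, Fbln5, Fbln2, Cytl1, Eln and Pi16. The rule found 4700 cells, which were 16.65% of the 28236 endothelial cells by the same limits. The remaining endothelial cells were 1586 with 3 or more large-artery genes, called large-artery cells below, and 21950 others, in which capillary and venous cells fall.

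Arterioles are the vessels that feed the capillary bed, and their endothelium lies inside a layer of smooth muscle that sets blood flow. Arterial identity of endothelium depends on Notch signalling, in which the ligand Dll4 and the receptors Notch1 and Notch4 lead to transcription of Hey1 and other targets, and ephrin B2 (Efnb2) marks arterial membranes. Along the brain's vessel tree the endothelium changes gradually from artery to capillary to vein, a property called zonation. Laminins are trimers of the vascular basement membrane. Endothelial cells make the alpha 4 and alpha 5 chains, encoded by Lama4 and Lama5.

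The series compared 4 groups of 8-week-old mice: Lama4-/- mice (Lama4 KO), the wild-type (WT) mice that served as their control, Tek-Cre:Lama5-/- mice (Lama5 KO), and another WT group for these. Tek-Cre is active in the endothelial lineage and in blood cells, so the Lama5 deletion is conditional, while the Lama4 deletion is in all cells. Brains of 3 mice were pooled in each group after perfusion with ice-cold buffer, the tissue label is cortical plate, and each group has 2 samples. The strain and the Cre status of the controls are not given in the sources used here. The 2 Lama4 KO samples held identical matrices and were counted as 1 library, which leaves 7 distinct libraries and no test for the Lama4 KO. The libraries of a group came from 1 pool of mice, so every p-value measures the spread between libraries of 1 pool and not between mice.

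Each library gave 451 to 878 such cells, with 3607088 to 5545737 UMIs in all. The median cell held 6046 to 7744 UMIs in the Lama4 experiment and 3642 to 4392 in the Lama5 experiment, against 4440 to 5491 and 2526 to 3195 in the other endothelial cells. Only 4 barcodes were shared between libraries. Detection of 2 or more of the 6 arterial genes was found in at most 0.693% of mural barcodes, 0.360% of microglia and 1.08% of the remaining non-endothelial barcodes, whose median depth was 2788 to 7151 UMIs. RNA of other cells was present at levels that differed between libraries. The summed level of 5 oligodendrocyte markers in the chosen cells was 38.3 to 374 CPM (UMIs of a gene scaled to a common total per library) in the Lama4 experiment and 792 to 2330 CPM in the Lama5 experiment. The 4 adult hemoglobin genes summed to 55.8 CPM in the Lama4 KO library and to 988 to 5562 CPM in the other 6. Neither pericyte markers (3.73 to 8.51 CPM over the 5 that the rule does not use) nor fibroblast markers (1.38 to 3.27 CPM over 5) reached 10 CPM in any library. The 5 smooth muscle markers that the rule does not use summed to 47.9 to 77.6 CPM. In the other endothelial cells they summed to 39.5 to 47.6 CPM in the Lama4 experiment and 20.7 to 24.1 CPM in the Lama5 experiment. None of these lists had a member at 0 in every library.

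The rule's own genes describe how the cells were cut from a continuum, and no test applies to them. Sema3g, a secreted semaphorin, was detected in 74.3% of the cells, Stmn2, a microtubule regulator, in 59.1%, and Gkn3, a secreted gastrokine, in 53.9%. Vegfc, a lymphatic and vascular growth factor, was detected in 50.1%, Egfl8 in 45.3% and Bmx, a cytoplasmic tyrosine kinase of arterial endothelium, in 44.1%. Exactly 2 of the 6 genes were found in 1869 cells (39.8%), all 6 in 420 cells (8.94%), and the most common pair among cells with exactly 2 was Sema3g with Stmn2, in 472 cells. Just outside the rule lay 4838 endothelial cells with exactly 1 arterial gene, and 17112 had none. On the upper side, 1271 of the chosen cells had 2 large-artery genes, and 797 large-artery cells had exactly 3.

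Gkn3 reached 247, 249 and 415 CPM in Lama4 WT 1, Lama4 WT 2 and the Lama4 KO, 394 and 499 CPM in the Lama5 WT libraries, and 701 and 768 CPM in the Lama5 KO libraries. In the other endothelial cells it stood between 4.04 and 9.39 CPM, and in large-artery cells between 1461 and 2760 CPM. Sema3g lay at 154 to 169 CPM in the Lama4 experiment and at 310 to 334 CPM in the Lama5 experiment. For each of the 6 arterial genes, the 3 libraries of the Lama4 experiment had lower levels than the 4 of the Lama5 experiment, except for Gkn3, where the Lama4 KO (415 CPM) lay between both Lama5 WT libraries. Mgp, matrix Gla protein, was the large-artery gene that ran deepest into these cells, at 275 to 375 CPM in the Lama4 experiment and 499 to 973 CPM in the Lama5 experiment.

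Genes that the rule did not use placed the cells between capillary endothelium and large arteries. Because the cells were cut from the same profiles, these levels are a description, without a test. The Notch target Hey1 stood at 122 to 162 CPM in the 7 libraries, against 33.8 to 50.2 CPM in the other endothelial cells and 184 to 240 CPM in large-artery cells. Tmem100, a membrane protein of arterial endothelium and a target of BMP signalling, had 36.2 to 72.8 CPM against 3.64 to 6.75 and 113 to 180 CPM. For both genes the 3 cell sets did not overlap in any library. Alkaline phosphatase (Alpl) lay at 198 to 345 CPM against 42.0 to 58.2 and 380 to 511 CPM, and Efnb2 at 68.2 to 190.0 CPM against 27.1 to 60.5 and 115 to 269 CPM. In the opposite direction, carbonic anhydrase 4 (Car4), which marks capillary endothelium, went from 693 to 1048 CPM in the other cells to 121 to 291 CPM here and 17.8 to 60.6 CPM in large arteries.

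**Figure D1:**
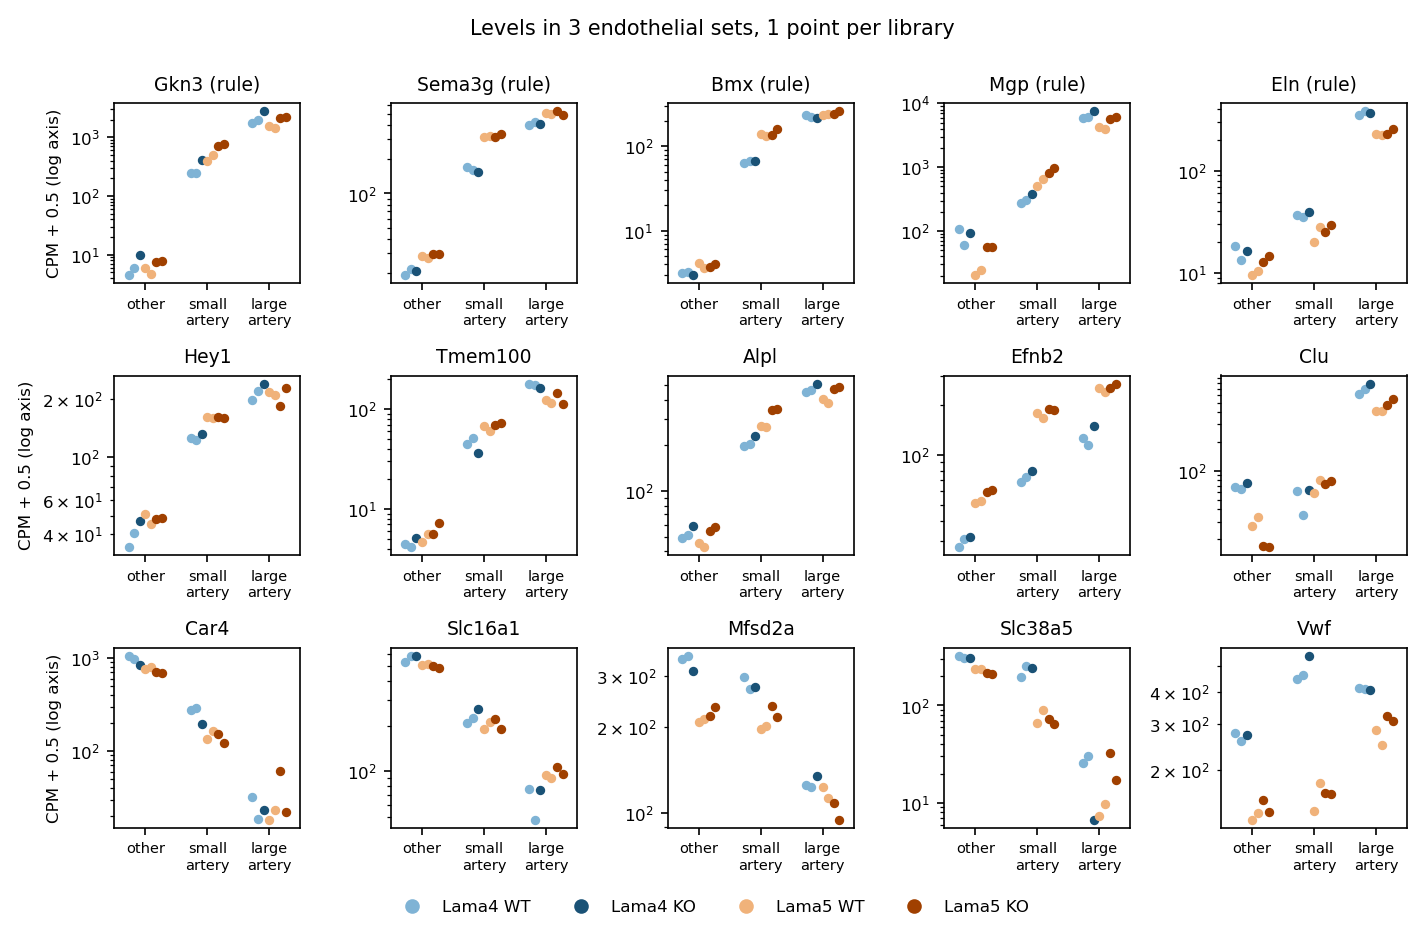
Levels of 15 genes in other endothelial, small-artery and arteriolar, and large-artery cells, in CPM plus 0.5 on a log axis, with 1 point per library coloured by group. Genes marked "rule" chose the cells. Hey1, Tmem100, Alpl and Efnb2 rise from left to right and Car4 and Slc16a1 fall, while Clu stands at 34.6 to 79.5 CPM in the small-artery cells and at 412 to 788 CPM in large arteries.

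In all 7 libraries, 31 genes outside the rule were 2-fold or more higher than in the other endothelial cells, of 3442 genes with a mean of 50 CPM or more in the arteriolar cells. The leading ones, ordered by the smallest of the 7 log2 ratios, were Tmem100 (2.86), Lypd1 (2.27), Lrrc32 (2.20), Alpl (1.98), Eps8l2 (1.90), Cdk19 (1.76) and Nov (1.70). Lrrc32 encodes GARP, which holds latent TGF-beta at the cell surface, and Nov (also called Ccn3) is a secreted matricellular protein. They were followed by the homeobox gene Msx1 (1.68), Rad54b (1.63), the kinase gene Tec (1.63), Hey1 (1.497), stanniocalcin 1 (Stc1, 1.42), Mgst1 (1.41), the netrin receptor Unc5b (1.39) and Crispld1 (1.38). Pdgfa (1.33), a growth factor that acts on mural cells, St8sia6 (1.26), Efnb2 (1.24), Atp13a3 (1.23) and the cyclin gene Ccnd2 (1.23) completed the 20. In the other direction 7 of 3392 genes were 2-fold or more lower in all 7 libraries. Car4 led these, with log2 ratios of -2.51 to -1.76, followed by Ttyh2 (-1.79 to -1.39), Hmcn1 (-1.95 to -1.36) and the monocarboxylate transporter gene Slc16a1 (-1.41 to -1.16). Adrenomedullin (Adm), Ndnf and Tiam1 were also lower in every library, and the transferrin receptor gene Tfrc, which brings iron into the brain, was lower by log2 ratios of -1.33 to -0.95.

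The genes that differed most between large-artery and arteriolar cells are again given as values without a test. Biglycan (Bgn), a matrix proteoglycan, had 5.24 CPM over the pooled arteriolar cells and 119.5 CPM over the pooled large-artery cells. Clusterin (Clu), a secreted chaperone, had 63.0 against 588 CPM, and Igfbp4, which binds insulin-like growth factors, 8.91 against 151.7 CPM. The nitric oxide synthase gene Nos1 had 11.1 against 112.8 CPM and the prostacyclin synthase gene Ptgis 11.96 against 88.1 CPM. Emp3, Fhl1 and Fstl1 were likewise higher in the large-artery cells of all 7 libraries. In the arteriolar cells, Slc38a5, an amino acid transporter of venous and capillary endothelium, was higher (148.9 against 18.2 CPM), as were Car4, Flrt2, Mt2, Ctla2a (713 against 125.7 CPM), Nrp2, Lrg1 and Fmo2.

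The arteriolar cells were not uniform. Cells with more of the 6 arterial genes had more of the arterial transcripts that the rule did not read, at levels given here in CPM without TMM scaling, the between-library scaling used elsewhere. Hey1 went from 32.7 to 45.4 CPM in endothelial cells with none of the 6 genes to 40.1 to 61.7 CPM with 1, 65.0 to 127.2 CPM with 2, and 170 to 231 CPM with 4 or more. Gja4, which encodes the arterial gap junction protein connexin 37, went from 1.5 to 3.7 CPM over the same steps to 39.4 to 93.8 CPM. In the WT libraries Gja4 was over 10 times higher in a non-endothelial cell class than in the arteriolar cells. The part of such RNA in its rise was not tested. Car4 went the other way, from 715 to 1223 CPM with none to 236.5 to 504 CPM with 2 and 28.4 to 85.4 CPM with 4 or more. Cells just inside the rule thus had more Hey1 and less Car4 than cells just outside it (415 to 859 CPM of Car4 with exactly 1 gene) in every library. At the upper limit, cells with 2 large-artery genes had 107 to 198 CPM of Hey1 and 594 to 1832 CPM of Mgp, and large-artery cells with exactly 3 had 177 to 264 and 1564 to 2607 CPM.

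**Figure D2:**
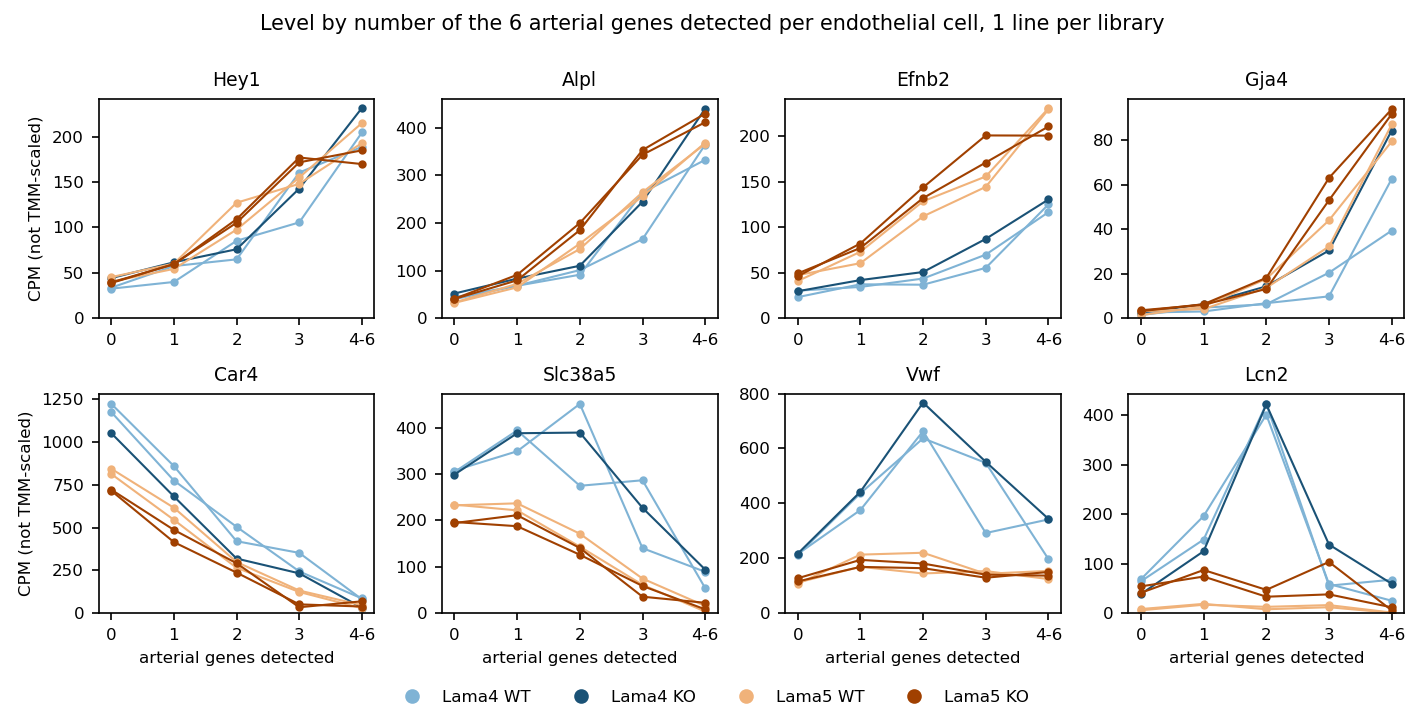
Level in CPM, without TMM scaling, of 8 genes against the number of the 6 arterial genes detected in an endothelial cell that is not a large-artery cell, with 1 line per library. Hey1, Alpl, Efnb2 and Gja4 rise with the number and Car4 falls, and in the 3 Lama4-experiment libraries Vwf and Lcn2 peak in cells with exactly 2 arterial genes.

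Venous transcripts went against the label in part of the Lama4-experiment cells. Von Willebrand factor (Vwf), which is high in large vessels and veins, reached 637, 663 and 767 CPM in cells with exactly 2 arterial genes in Lama4 WT 1, WT 2 and the KO, against 212 to 216 CPM in endothelial cells with none. In the Lama5 experiment the same cells had 144 to 220 CPM. Lcn2, lipocalin 2, a secreted iron-siderophore carrier found in inflamed and venous endothelium, reached 401 to 423 CPM in Lama4-experiment cells with exactly 2 arterial genes and at most 67.5 CPM in those with 4 or more. The summed level of 7 venous markers in all arteriolar cells was 1363, 1527 and 1632 CPM in the Lama4 experiment, above the 997 to 1107 CPM of the other endothelial cells. In the Lama5 experiment it was 495 to 727 CPM, below the 793 to 1019 CPM of the other cells. After each cell was thinned to 2000 UMIs and chosen anew, 2 or more venous markers were found in 8.28% to 9.93% of the arteriolar cells of the Lama4 experiment and in 9.57% to 12.2% of those of the Lama5 experiment, against 17.3% to 20.2% of the other endothelial cells. At the same depth, 2 or more of 6 capillary markers were found in 66.8% to 76.8% of the arteriolar cells and 93.6% to 95.3% of the other cells. At equal depth the share of cells with 2 or more venous markers was thus lower than in the other cells of all 7 libraries. At full depth the summed venous level in the Lama4 experiment was higher. These are unlike measures on different choices of cells, and the part of depth in the contrast was not tested. Few cells held much of the summed level. Lcn2 was detected in 7.69% to 9.4% of the Lama4-experiment cells, with 50.9% to 69.8% of its UMIs in 5 cells of each library. Vwf was detected in 45.4% to 52.1%, with 24.9% to 27.02% of its UMIs in 5 cells.

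The share of these cells among all endothelial cells was lower in both KO groups than in their WT at full depth, but neither order held across the libraries at equal depth. At full depth it was 20.6% and 19.8% in the Lama4 WT libraries and 18.8% in the Lama4 KO, and 16.2% and 15.8% in the Lama5 WT against 15.5% and 14.8% in the Lama5 KO. The mean was 16.0% ± 0.27 (SD, n = 2) in the Lama5 WT and 15.2% ± 0.48 (SD, n = 2) in the Lama5 KO, a difference of -0.81 percentage points. An exact two-sided permutation test gave p = 0.33, the smallest value that 2 against 2 libraries allow. Detection depends on depth, and the thinned cells gave another order: 13.2%, 14.2% and 13.2% in the Lama4 experiment, 15.3% and 14.5% in the Lama5 WT, and 14.8% and 16.2% in the Lama5 KO. The difference for Lama5 then turned to 0.63 points (exact permutation p = 0.67), and that for Lama4 went from -1.44 to -0.46 points. Thinning left out 125 to 191 endothelial cells per library in the Lama4 experiment and 703 to 1398 in the Lama5 experiment.

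**Figure D3:**
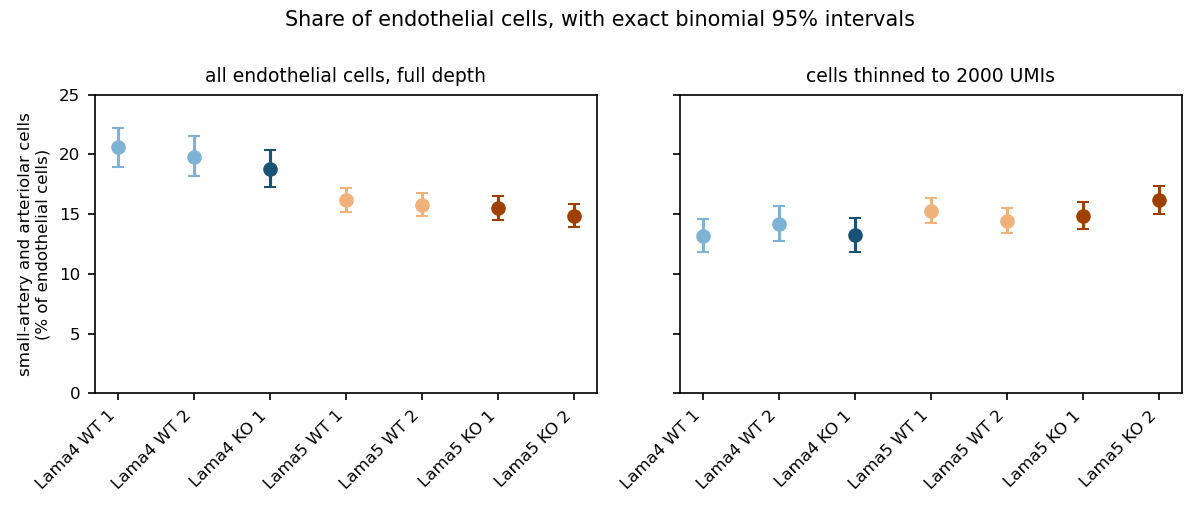
Small-artery and arteriolar cells as a percentage of endothelial cells in each library, with exact binomial 95% intervals that cover counting error only. At full depth (left) the Lama4-experiment libraries lie at 18.8% to 20.6% and those of the Lama5 experiment at 14.8% to 16.2%, and after thinning to 2000 UMIs (right) all 7 lie between 13.2% and 16.2%.

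Both targeted laminin genes were measured in these cells. Lama4 lies on mouse chromosome 10 from 38965515 to 39110188 on the plus strand, and Lama5 on chromosome 2 from 180176373 to 180225859 on the minus strand (GRCm38, GENCODE M21). In Lama4 WT 1 and WT 2 the arteriolar cells held 227 and 192 UMIs of Lama4 (39.2 and 35.9 CPM), and in the Lama4 KO they held none. A one-sided 95% limit for a count of 0 is 3 UMIs, or 0.659 CPM. By that limit Lama4 was at least 57.1-fold lower than the 37.6 CPM of both WT libraries together. The exact two-sided Poisson 95% interval of the KO value reached 0.81 CPM, which allows a smaller fold. Lama5 in the same libraries was at 57.3 and 55.5 CPM in the WT and 67.2 CPM in the KO. The exact Poisson 95% interval of the KO value, 59.9 to 75.2 CPM, overlapped those of both WT libraries.

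In the Lama5 experiment, Lama5 was at 44.9 and 48.7 CPM in the WT and 22.4 and 32.7 CPM in the KO. The groups did not overlap, and the log2 fold change of -0.78 ± 0.14 (SE) passed edgeR's quasi-likelihood test (adjusted p = 0.00347). The transcript thus remained at more than the 0 seen for Lama4 in its KO. Counts come from the 3-prime end, and which exons were deleted is not given in the sources used here, so residual counts do not measure intact mRNA. Lama4 rose in the Lama5 KO, from 25.1 and 26.6 CPM to 49.5 and 42.8 CPM (log2 fold change 0.84 ± 0.12, edgeR adjusted p = 0.000636). The change was not particular to arteriolar cells. In the other endothelial cells Lama4 went from 30.5 and 31.3 to 52.8 and 48.5 CPM, and the difference between the cell sets was not called (interaction log2 0.13 ± 0.13, edgeR adjusted p = 0.942). The same held for Lama5 (interaction log2 -0.02 ± 0.15, edgeR adjusted p = 0.996). Among WT cells, Lama5 was higher in large arteries, at 69.1 to 109.0 CPM, than in arteriolar cells, at 44.9 to 57.3 CPM, in each of the 4 WT libraries. Lama4 was also above the arteriolar level in the large arteries of each WT library. Large-artery cells held 40.8 and 45.5 CPM of it in the Lama4 WT, where arteriolar cells held 39.2 and 35.9 CPM. For the Lama5 WT these levels were 35.5 and 40.1 CPM, above arteriolar levels of 25.1 and 26.6 CPM. The Poisson 95% intervals of the Lama4 values overlapped in each of these libraries except Lama5 WT 2. The other endothelial cells, at 30.5 to 46.2 CPM, lay above the arteriolar cells in all 4, with overlapping Poisson 95% intervals in each.

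**Figure D4:**
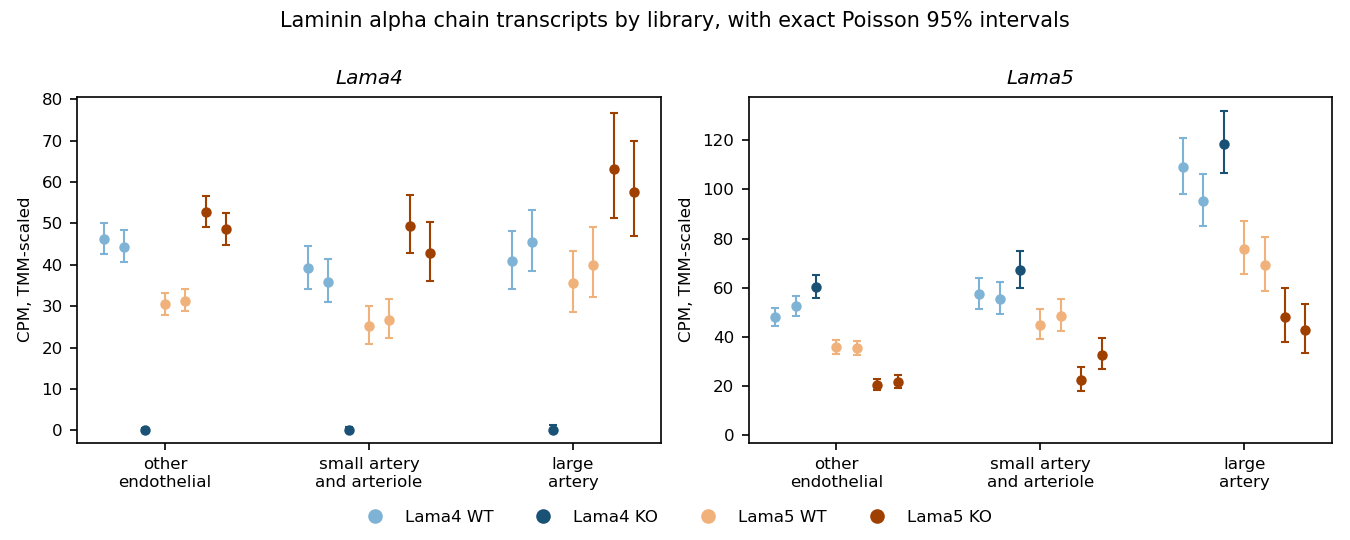
Lama4 and Lama5 in CPM in the 3 endothelial sets, with 1 point per library and exact Poisson 95% intervals that cover counting error only. Lama4 is at 0 in the arteriolar and large-artery cells of the Lama4 KO and at 42.8 to 49.5 CPM in the arteriolar cells of the Lama5 KO, above the 25.1 and 26.6 CPM of its WT, while Lama5 in those cells is at 22.4 and 32.7 CPM in the Lama5 KO.

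Loss of endothelial Lama5 went with changes in 563 of 11054 tested genes in the arteriolar cells (5.09%), of which 330 were higher in the KO (2.99%) and 233 lower (2.11%). The 22 genes the rule reads were left out of these counts. Changes were small: 80 of the 563 genes reached 2-fold. The calls are edgeR quasi-likelihood tests on UMIs summed per library, 2 against 2, at a Benjamini-Hochberg adjusted p under 0.05. The split depended on scaling, with 158 higher and 458 lower when library totals replaced TMM factors, and the count fell to 306 in cells with 3 or more arterial genes and to 205 with DESeq2. Of the 563 genes, 467 (83.0%) were also called in the other endothelial cells, where they were 25% of 1868 calls. That 55.4% of the called genes differed at least as much between the 2 WT groups, against 68.3% of all genes, gives the size of these changes beside that between pools.

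Of the genes that rose, Stra6, the retinol-uptake receptor, went from 25.1 and 21.4 CPM in the WT to 45.6 and 54.7 CPM in the KO (log2 fold change 1.10 ± 0.13, edgeR adjusted p = 0.000131). Vcam1, a leukocyte adhesion molecule, went from 109 and 150.4 CPM to 237 and 193.7 CPM (0.74 ± 0.11, edgeR adjusted p = 0.00101). For both genes the KO libraries lay above both WT libraries. Among the genes named by rule Lcn2 rose most on the log2 scale, from 5.72 and 9.02 CPM to 26.0 and 41.6 CPM (2.18 ± 0.24, edgeR adjusted p = 7.8e-05). Its UMIs came from few cells: 7 and 18 arteriolar cells in the WT libraries and 22 and 19 in the KO had any, and the 5 highest cells held 60.5% to 92.9% of them. The 5 highest cells held 24.95% to 29.96% of the Vcam1 UMIs and 9.61% to 17.7% of those of Stra6.

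The MHC class I gene H2-Q7 rose from 15.3 and 23.5 to 41.5 and 59.1 CPM (log2 fold change 1.36), and reads of it and of the near-identical H2-Q6 may be shared out arbitrarily. The clock repressor gene Nr1d1 was at 69.5 and 57.0 CPM in the WT and 109 and 126.6 CPM in the KO (0.89). Emp1 (0.84), the GARP gene Lrrc32 (0.76), Zbtb2 (0.74) and Gm9493 (0.93) also rose, with edgeR adjusted p from 0.000378 to 0.00200. Lrrc32 was one of the genes that set these cells apart from other endothelium, with 82.7 and 62.1 CPM in the WT and 120 and 126.6 CPM in the KO. Gm42418, a gene model that overlaps ribosomal RNA sequence, took 35500 and 33890 CPM in the WT and 65730 and 70980 CPM in the KO (0.98), and Lars2 moved with it, from 852 and 819.5 to 1442 and 1572 CPM (0.85). The part of Gm42418 in the values of other genes was not tested.

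Among genes that fell, Fkbp5, a glucocorticoid-induced chaperone, was at 31.3 and 36.9 CPM in the WT and at 19.6 and 20.2 CPM in the KO (log2 fold change -0.78, edgeR adjusted p = 0.00412). Galnt15, a mucin-type glycosyltransferase, was at 90.1 and 77.6 against 53.6 and 48.1 CPM (-0.72), and 8430408G22Rik, also known as Depp1, at 236 and 203 against 144 and 140.2 CPM (-0.62). Dusp23 (-0.75), the synaptotagmin gene Syt7 (-0.66) and 4632415L05Rik (-0.63) also fell. The 5 highest cells held 26.1% to 45.6% of the Fkbp5 UMIs and 4.66% to 11.7% of those of Galnt15 and 8430408G22Rik. Fkbp5 was not called with 3 or more arterial genes (-0.54, edgeR adjusted p = 0.164), nor was Syt7 (-0.55, edgeR adjusted p = 0.0572). In cells chosen after thinning neither Dusp23 (-0.43, edgeR adjusted p = 0.211) nor 4632415L05Rik (-0.31, edgeR adjusted p = 0.355) nor Fkbp5 (edgeR adjusted p = 0.0975) was called. Without Lama5 WT 2 or KO 2, 4632415L05Rik lost its call as well (edgeR adjusted p 0.103 and 0.126). Vcam1, among the genes that rose, was not called with DESeq2 (adjusted p = 0.0861).

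The remaining genes named by rule that fell were, apart from Lama5, the hemoglobin genes and Slc1a2, which are known from red blood cells and astrocytes. All 4 hemoglobin genes were lower, led by Hbb-bt (293 and 564 CPM in the WT, 27.1 and 144 CPM in the KO, log2 fold change -2.37). In each Lama5-experiment library, 5 arteriolar cells held 75.8% to 95.6% of the hemoglobin UMIs, and with at least 3 arterial genes the log2 change of Hba-a2 was 0.01 (edgeR adjusted p = 0.998). Slc1a2, the astrocytic glutamate transporter gene, was at 79.3 and 76.8 CPM in the WT and at 33.5 and 37.7 CPM in the KO (-1.14), and 5 cells held 49.6% to 63.7% of its UMIs. All 5 oligodendrocyte markers and 4 of the 5 tested astrocyte markers were called lower. Ttr of choroid plexus was called higher, at 0.204 and 0 CPM in the WT and 69.3 and 50.5 CPM in the KO. The microglial markers summed to 79.5 and 87.4 CPM in the WT and 120 and 115 CPM in the KO. The oligodendrocyte markers summed to 2330 and 1302 CPM in the WT arteriolar cells and 792 and 1123 CPM in the KO. Another 36 called genes, 29 of them lower, were over 10 times higher in other cell classes than in arteriolar cells and were kept out of the named genes. Without cells that held 20 CP10k or more of the oligodendrocyte markers, a limit added after seeing the data, 611 genes were called. That limit left out 10 to 24 arteriolar cells per Lama5-experiment library, while 454 to 640 held a UMI of these markers. The part of the remaining oligodendrocyte RNA in the calls was not tested.

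**Figure D5:**
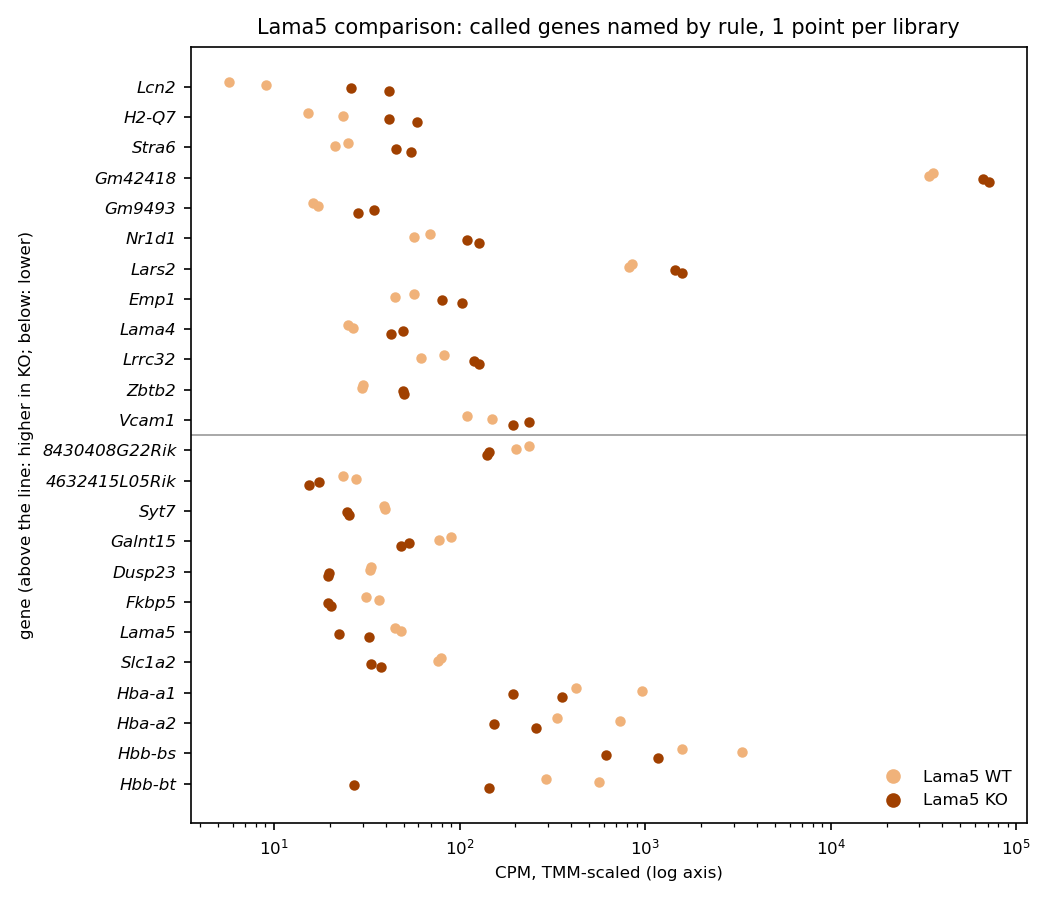
The 24 genes named by rule in the Lama5 comparison, in CPM on a log axis, with 1 point for each of the 2 WT and 2 KO libraries. The KO libraries lie right of both WT libraries for the 12 genes above the line and left of them for the 12 below, which includes the 4 hemoglobin genes.

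Gene lists had small median log2 fold changes in the arteriolar cells of the Lama5 KO, from -0.16 to 0.26. In the same edgeR fit, several lists had a larger share of called genes than the 5.09% of all genes, and others had none. The median log2 fold change over all tested genes was -0.005. Of 26 tested genes of the Notch pathway and arterial identity, 3 rose and none fell, with a median of 0.08. The ligand Dll4 went from 150.3 and 139.9 to 163 and 188 CPM (0.27, edgeR adjusted p = 0.0360). The transcription factor Sox7 went from 99.3 and 103 to 133 and 125 CPM (0.36, edgeR adjusted p = 0.00562). Alpl went from 269.8 and 266 to 344 and 345 CPM (0.36, edgeR adjusted p = 0.000437). Sox7 was not called with DESeq2 (adjusted p = 0.0648). The call for Dll4 was lost without Lama5 WT 2 (adjusted p = 0.124 in edgeR) and without Lama5 KO 2 (adjusted p = 0.279 in edgeR). The receptors and the target did not follow: Notch1 was at 327 and 302 against 304 and 317 CPM, Hey1 at 162 and 159 against 162 and 159.6 CPM, and Hes1 at 695 and 651 against 687 and 679 CPM. Of the rule's own genes, given without a test, the arterial gene Gkn3 was higher in both KO libraries, by 0.72 on the log2 scale. The large-artery gene Mgp was also higher in both, by 0.63, whereas Sema3g (0.04) and Vegfc (0.07) lay close to 0. Stmn2 went from 265.7 and 262.3 to 277.6 and 306.3 CPM, and Egfl8 from 158.7 and 164.6 to 176.0 and 201.7 CPM. Bmx, at 139.9 and 130.4 against 137.6 and 158.1 CPM, overlapped between the groups.

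Capillary genes went down more often than up, with 4 of 12 lower and 1 higher and a median of -0.04. The amino acid transporter gene Slc7a5 fell from 363 and 393 to 313 and 262 CPM (-0.39), Rgcc from 797 and 796 to 647 and 678 CPM (-0.27), and Cxcl12 and Itm2a fell by 0.17 each on the log2 scale. Tfrc rose against them, from 142 and 143 to 211 and 189 CPM (0.49), though with 3 or more arterial genes its change was 0.26 (edgeR adjusted p = 0.0823). Slc7a5 was not called with DESeq2 (adjusted p = 0.0736). Of 13 tested venous genes, Lcn2 and Vcam1 rose and none fell. Barrier transport had 3 of 13 higher and 1 lower. Beside Stra6, the neutral amino acid transporter gene Slc38a2 rose from 980.5 and 979.5 to 1202 and 1206 CPM (0.30), the heavy chain gene Slc3a2 rose by 0.19, and the organic anion transporter gene Slco2b1 fell from 91.5 and 99.6 to 76.0 and 71.6 CPM (-0.37). Single libraries decided some of these calls: Cxcl12 lost its call without Lama5 WT 1 (edgeR adjusted p = 0.135), Itm2a without KO 2 (edgeR adjusted p = 0.1004), Slco2b1 without KO 2 (edgeR adjusted p = 0.0531), and Slc3a2 without WT 1 or KO 1 (edgeR adjusted p 0.0901 and 0.309). Slco2b1 was also not called with DESeq2 (adjusted p = 0.1305). None of 12 barrier junction genes and none of 10 caveola and transcytosis genes was called in either direction.

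Vascular basement membrane genes had 4 of 14 lower and 1 higher, with the largest downward median of the 14 lists, -0.16. Beside Lama5, the matricellular gene Sparc fell from 1246 and 1239 to 1037 and 964 CPM (-0.31, edgeR adjusted p = 0.000409). Agrin (Agrn) went from 170 and 167 to 141 and 144 CPM (-0.24, edgeR adjusted p = 0.0260), and the collagen IV chain Col4a2 from 385 and 369 to 318 and 329 CPM (-0.22, edgeR adjusted p = 0.0147). The calls of both were lost without Lama5 WT 1 or Lama5 KO 1 (edgeR adjusted p 0.0634 to 0.114). Dll4, Agrn, Col4a2, Itga1, Nfe2l2, H2-K1, Oasl2 and Slc3a2 also lost their calls with 3 or more arterial genes and with DESeq2. The partner laminin chains were not called: Lamb2 was at 135 and 160.0 against 120.4 and 143 CPM and Lamc1 at 58.4 and 60.0 against 62.6 and 60.0 CPM. Of 18 tested laminin receptor and focal adhesion genes, the integrin chain Itga1 was lower (-0.17, edgeR adjusted p = 0.0456) and zyxin (Zyx) higher, from 45.1 and 45.1 to 66.0 and 65.1 CPM (0.54). Itga1 lost its call without any of Lama5 WT 2, KO 1 or KO 2 (edgeR adjusted p 0.0889 to 0.192). The laminin-binding integrin chains Itga6 (-0.02) and Itgb1 (0.01) and dystroglycan (Dag1, -0.02) were not called.

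In the genes by which endothelium controls vessel tone, 1 of 18 rose and 2 fell. Endothelin 1 (Edn1), a vasoconstrictor peptide, went from 535 and 461 to 590.2 and 603 CPM (0.26, edgeR adjusted p = 0.0147), Nostrin, which binds nitric oxide synthase, from 461 and 475 to 384 and 362 CPM (-0.33), and Ramp2, part of the adrenomedullin receptor, from 719 and 749 to 640.0 and 625 CPM (-0.21). The endothelial nitric oxide synthase gene Nos3 was at 164 and 163 against 165 and 161 CPM. With 3 or more arterial genes neither Edn1 (0.24, edgeR adjusted p = 0.0670) nor Ramp2 (-0.19, edgeR adjusted p = 0.0680) was called. Without Lama5 WT 2 the change of Edn1 was 0.15 (edgeR adjusted p = 0.0912). The flow-responsive factor Klf2 fell slightly, from 4029 and 4377 to 3625 and 3747 CPM (-0.19), S1pr1 fell by 0.21 and Nfe2l2 rose by 0.30, which made 1 of 14 flow-response genes higher and 2 lower. Klf4 was not called (0.09). Of 10 MHC class I genes 4 rose: H2-Q6, H2-Q7, B2m (0.16) and H2-K1 (0.15, edgeR adjusted p = 0.0401). H2-K1 lost its call in 12 alternative runs, among them thinning (0.11, edgeR adjusted p = 0.175). Leaving out Lama5 WT 1, KO 1 or KO 2 also ended it (0.12 to 0.17). Without TMM neither B2m (0.09, edgeR adjusted p = 0.156) nor H2-K1 (0.08, edgeR adjusted p = 0.309) was called. Of 12 interferon genes only Oasl2 was called, lower by 0.36, and without Lama5 WT 2 or KO 2 it was not (edgeR adjusted p 0.138 and 0.160). None of the 7 tested elastic and collagen matrix genes was called. In the dissociation and immediate early list 2 of 16 rose and 4 fell, led by Hspa1b (325 and 334 against 229 and 233 CPM, -0.51) and Btg2 (-0.35).

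The response to Lama5 loss differed between arteriolar and other endothelial cells for 42 of 12796 genes (0.328%), with 11 changed upward relative to the other cells (0.086%) and 31 downward (0.242%). The test was the interaction of cell set and genotype in edgeR with each library as a block. Clu led the upward genes. It was at 58.8 and 79.5 CPM in WT and 73.2 and 77.6 CPM in KO arteriolar cells, while in the other endothelial cells it was at 26.8 and 32.9 CPM in the WT and 16.3 and 15.9 CPM in the KO (interaction log2 1.02 ± 0.12, adjusted p = 1.7e-07 in edgeR). The arteriolar level of the groups overlapped, and the other cells were lower in both KO libraries. Igfbp3, an insulin-like growth factor binding protein, showed a reverse pattern. Arteriolar cells held 226 and 226 CPM in the WT and 246 and 244 CPM in the KO, and the other cells held 16.5 and 15.4 against 29.1 and 34.7 CPM (interaction -0.87 ± 0.09, adjusted p = 3.8e-08 in edgeR). Against other endothelial cells with none of the 12 arterial and large-artery genes detected, a comparison added after seeing the data, Igfbp3 had an interaction of -1.37 and Clu of 1.10.

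Smaller interactions were found for the metallothionein gene Mt1 (0.26 ± 0.05), the inositol synthase gene Isyna1 (0.35 ± 0.07) and the Wnt receptor gene Fzd6 (0.30 ± 0.07), and a downward one for Nov (-0.93 ± 0.18). Mt1 rose in both sets, from 402 and 402 to 597 and 582 CPM in arteriolar cells and from 751 and 765 to 951 and 918 CPM in the others. The 4 hemoglobin genes (-2.40 to -1.24) were the remaining genes named by rule, and another 13 interaction calls, 12 of them downward, were genes over 10 times higher in other cell classes, such as Cldn11 and Mag of oligodendrocytes. Without cells rich in oligodendrocyte markers 23 interactions were called, with 3 or more arterial genes 21, and with DESeq2 6. Of the 14 lists, 3 had 1 member each called, all downward and none among the genes named by rule. These were the venous gene Lrg1 (10.4 and 5.66 against 10.6 and 6.83 CPM in arteriolar cells, 3.15 and 3.32 against 11.3 and 9.56 CPM in the others), the immediate early gene Egr1 (interaction -0.18), and Plvap, which forms the diaphragms of leaky vessels. Plvap stayed under 1 CPM in arteriolar cells of all 4 libraries and went from 0.169 and 0.114 to 7.81 and 7.51 CPM in the others. In those other cells 4 choroid plexus markers summed to 119.5 and 92.1 CPM in the WT and 192.8 and 189.9 CPM in the KO. A link between these markers and Plvap was not tested. The Notch, basement membrane, tone and flow lists had no call, at 847 genes with an unadjusted p under 0.05 in edgeR among all tested.

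The Lama4 KO was a single library, so its values stand without a test. A rule of size took genes at least 2-fold away from each WT library in the same direction, with 20 CPM or more and with separate Poisson intervals. It took 26 of 6440 genes (0.404%), 19 higher and 7 lower in the KO, while Lama4 WT 2 differed from WT 1 by the same size for 10 genes. Of the 26, 17 were over 10 times higher in other cell classes, among them Mbp, Mag and Cldn11 of oligodendrocytes and Ttr of choroid plexus. Ttr, the transthyretin gene, was at 107 and 80.3 CPM in the WT and at 777 CPM in the KO, where every arteriolar cell had a UMI of it. The oligodendrocyte markers summed to 70.1 and 38.3 CPM in the WT and 374 CPM in the KO, 85.0% of it in 5 cells, and the hemoglobin genes to 1944 and 4858 CPM against 55.8 CPM. The part of these cells' RNA in the other differences was not tested.

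Apart from Lama4 and the 4 adult hemoglobin genes, 4 genes of the 26 were left that were not enriched in other classes. Egr3, an immediate early transcription factor, was at 22.5 and 22.2 CPM in the WT and 54.5 CPM in the KO (log2 ratio 1.27), and the homeobox gene Hlx at 12.3 and 11.02 against 29.0 CPM (1.28). Both lay above both WT libraries, though in cells chosen after thinning their ratios were 1.00 and 0.91. Hbb-y, an embryonic globin gene, was at 5.01 and 13.3 against 27.5 CPM (1.54). Ackr1, a chemokine receptor of venules, was at 27.8 and 21.9 against 81.5 CPM (1.69). Its UMIs came from 18 and 21 WT cells and 26 KO cells, and among cells chosen after thinning the ratio was -0.81. Cells without the oligodendrocyte-rich ones gave 14 genes past the rule and cells chosen after thinning gave 4.

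As a list, the Notch and arterial identity genes of the Lama4 KO lay near the WT, while single arterial genes differed. Over 21 genes of the Notch and arterial identity list at 20 CPM or more the median log2 ratio was 0.02, against -0.01 for WT 2 over WT 1. Hey1 was at 125 and 122 CPM in the WT and 132 CPM in the KO, Sox17 at 445 and 427 against 424 CPM, and Notch1 at 261 and 269.6 against 247 CPM. Edn1 was at 259 and 245.5 against 390.4 CPM, Gja4 at 25.04 and 20.4 against 37.8 CPM, and Hes1 at 258 and 220.1 against 157 CPM. None of these 3 reached the rule of size, and Gja4 was over 10 times higher in a non-endothelial cell class of the WT libraries. Of the genes that set these cells apart, Lypd1 was at 60.1 and 58.5 CPM in the WT and 108.9 CPM in the KO. Cdk19 lay lower in the KO, at 206.0 and 197.5 against 142.5 CPM. Gkn3, one of the rule's own genes, was at 247.3 and 248.5 against 415.2 CPM. Over all genes with a mean of 20 CPM the SD of the log2 ratio was 0.27 and 0.30 for the KO over either WT library and 0.15 between the WT libraries. The medians of the remaining lists lay between -0.09 and 0.11, beside -0.002 for all genes.

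The WT cells of the 2 experiments differed in more genes than the Lama5 KO did from its control. Of 11307 genes, 4013 were called (35.5%), with 2204 higher in the Lama5-experiment WT (19.5%) and 1809 lower (16.0%). Here the experiment cannot be told apart from the pool of mice. With the cells chosen after thinning and their full counts summed, 3154 genes were called. All 13 tested venous genes were lower in the Lama5-experiment WT, with a median log2 fold change of -1.42. At equal depth the share of cells with 2 or more venous markers, counted in cells chosen anew, did not run this way. It was 8.28% and 9.21% in the Lama4-experiment WT and 9.57% and 11.8% in the Lama5-experiment WT. This share and the levels are unlike measures on different choices of cells. Lcn2 was at 175 and 219 CPM in the Lama4-experiment WT and 5.72 and 9.02 CPM in the other (-4.73), Vwf at 447 and 462 against 140 and 179 CPM (-1.51), and Lrg1 at 80.1 and 106 against 10.4 and 5.66 CPM (-3.51). Of 25 tested Notch and arterial identity genes 15 were higher and 3 lower, with a median of 0.36, and Efnb2 was at 68.2 and 72.7 against 180 and 167 CPM (1.31). In the dissociation and immediate early list 13 of 16 were higher, among them Fosb (2.64), while the heat shock gene Hspa1b was lower, at 1782 and 1866 against 325 and 334 CPM (-2.46). Milr1 (5.86), Pou3f1 (4.19), Gm26802 (3.86), Nabp1 (3.83) and Hist4h4 (3.82) were the most increased genes by rule, and Gstp1 (-1.98) was among the most decreased.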

How the data were processed

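The authors deposited raw UMI counts per gene and barcode from Chromium 3-prime v3 libraries (per the labels' protocols: papain and Liberase digestion, myelin removal). The matrix headers name software version 3.1.0, and the submitters' processing notes name Cell Ranger, Seurat 3.1 and mm10. Members, gene lists and tests were chosen with earlier results of these data known. Counts were summed per library over the cells of a set. edgeR 4.0.16 (filterByExpr, TMM, glmQLFit, glmQLFTest) tested them, with Benjamini-Hochberg adjustment over all genes. DESeq2 1.42.0 was an alternative. Levels are CPM on TMM-scaled totals, and the log2 ratios of the Lama4 comparison add 0.5 CPM. Genes were named by fixed limits: up to 12 each way called in the Lama5 comparison, 6 in the interaction and 5 between WT groups, by fold change, at a mean of 20 CPM, with groups apart and at most 10 times higher in other cell classes; called list members up to 4 each way; 20 genes higher and 10 lower than in other endothelial cells, and 8 each way against large arteries. Doublets were scored with scrublet in scanpy 1.11.5; no cell was removed for it except in an alternative (292 members, 6.21%). On simulated data the Lama5 test recovered 91% of genes changed 1.5-fold and 99% of those changed 2-fold, and the interaction test 90% and 100%. False calls numbered 8 and 4. Only genes above a mean of 20 CPM were changed. Library sums were drawn independently per gene, without UMIs concentrated in few cells, so recovery in the real data may differ. Coordinates are from GENCODE M21. Replicate numbers did not pair the libraries (correlation of deviations -0.07 over 11075 genes). Intervals cover counting error only. Results of a few genes are not reported here.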

Additional observations from a re-analysis of the deposited data

Results flagged for a closer look

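The effect of the Lama5 KO differed between arteriolar and other endothelial cells for the 10 genes named by rule from the interaction test in edgeR. Clu had an interaction log2 of 1.02 (adjusted p = 1.7e-07 in edgeR), which was 0.86 without doublets and stayed called in every alternative run, DESeq2 included (adjusted p = 0.0188). Igfbp3 had -0.87, which was -0.45 in cells chosen after thinning (adjusted p = 0.0325 in edgeR) and stayed called throughout. Mt1 had 0.26, or 0.72 after thinning, and lost its call only with DESeq2 (adjusted p = 0.35). Isyna1 had 0.35 and lost its call with 3 or more arterial genes, with DESeq2, after thinning (0.19, adjusted p = 0.768 in edgeR) and without Lama5 KO 1 (0.27, adjusted p = 0.295 in edgeR). Fzd6 had 0.30 and lost its call without any single library, for example without Lama5 KO 2 (0.26, adjusted p = 0.329 in edgeR). Nov had -0.93 and lost its call without Lama5 WT 1 (-0.78, adjusted p = 0.111 in edgeR) with 3 or more arterial genes, after thinning, without doublets, with DESeq2, against cells with none of the 12 genes, and without Lama5 KO 2 (-0.61, adjusted p = 0.4998 in edgeR). The hemoglobin genes Hbb-bt (-2.40), Hba-a2 (-1.32), Hbb-bs (-1.27) and Hba-a1 (-1.24) had most of their UMIs in 5 cells of each library. With 3 or more arterial genes Hbb-bt stood at -0.71 (adjusted p = 0.810 in edgeR), and the other 3 turned to between 0.11 and 0.13.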

How the results depend on the processing

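The Lama5 count (563) was 306 with 3 of 6 arterial genes, 205 with DESeq2, 616 without TMM, 703 without a filter on low counts and 473 to 661 when a library was left out. With the replicate number as a block it was 491; the block ended the calls of Dll4 (adjusted p = 0.0546), Fos, H2-K1, Itga1 and Oasl2 in edgeR. The interaction count (42) was 21 with 3 of 6 genes, 15 after thinning, 65 without doublets, 23 without oligodendrocyte-rich cells, 6 with DESeq2 and 36 to 55 with a library left out. The WT count (4013) was 1692 with DESeq2 and 3009 to 3617 with a library left out. The Lama4 count (26) was 4 after thinning, 17 without doublets, 14 without oligodendrocyte-rich cells, 12 from 50 CPM up and 35 without either WT library. With a library left out, Lama5 ranged from -1.06 to -0.52 and Lama4 from 0.73 to 0.94 in the Lama5 comparison, and the share difference from -1.15 to -0.47 points for Lama5 and -1.81 to -1.06 for Lama4. Thinning reversed the Lama5 share difference (0.63), Hbb-bt (0.68) and Ackr1 (-0.81) in the Lama4 comparison. With 3 of 6 genes Hba-a2 (0.00663) reversed in the Lama5 comparison, as did Hba-a2 (0.11), Hbb-bs (0.13) and Hba-a1 (0.11) in the interaction. DESeq2 gave no adjusted p for Lama4, Lama5 and another 10 named genes; the cause of the other shifts was not tested. A lone sample in an arm was assumed to vary like the others.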
